A study of Homo sapiens with 18 samples.

Results

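The 10 genes described here are members of the BCL2 family, picked by name from the 22034 genes of the count table, and all 10 passed the filter on low counts that left 14164 genes for testing. They fall into 3 pro-survival members (MCL1, BCL2 and BCL2L1), 5 BH3-only members (BCL2L11, BBC3, PMAIP1, BMF and BIK) and 2 effectors (BAX and BAK1). The rule that picks them goes by name and role and uses no measured value. The members were, however, chosen with earlier results of these data known. The study asked which genes ERG controls in VCaP cells and how treatment with PBITE-1, a small molecule that binds the PNT domain of ERG, compares with lowering ERG itself. VCaP is a human prostate cancer line in which a TMPRSS2:ERG gene fusion places the ERG transcription factor under an androgen-responsive promoter.

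Ribosomal RNA-depleted total RNA was sequenced from 18 samples in 6 groups of 3 biological replicates. In the VCaP-shERG line, which carries a doxycycline-inducible hairpin against ERG, the groups were shERG-DMSO (vehicle) and shERG-Dox (1 µg/mL doxycycline). In parental VCaP cells the groups were DMSO (vehicle) and 50 µM PBITE-1 for 4, 8 or 12 h. The time of the vehicle samples and the length of the doxycycline treatment are not given in the sample labels. No sample with doxycycline but without the ERG hairpin was analysed here, so an effect of doxycycline itself and an effect of the hairpin cannot be told apart, and the sources used here do not say whether the line is a single clone. The 3 PBITE-1 times share the same 3 DMSO samples. Values after ± are SDs of 3 samples, unless called a standard error.

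BCL2 family proteins decide whether mitochondria release the factors that start apoptosis. The effectors BAX and BAK1 form pores in the outer mitochondrial membrane, the pro-survival proteins hold the effectors and their activators in check, and the BH3-only proteins, which are switched on by stress, bind into a groove of the pro-survival proteins or activate the effectors directly. In prostate cancer cells MCL1 and the BCL2L1 product BCL-XL are commonly relied on for survival, while BCL2 is known for low levels in androgen-dependent luminal cells.

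Total counts ran from 11308600 to 17483423 a sample, so that 1 count was worth 0.0571 to 0.0897 CPM (counts scaled to library size with TMM factors, so that a level is relative to the other genes of its sample). ERG checked the labels: it stood at 460.6, 448.7 and 433.4 CPM in shERG-DMSO and at 166.5, 167.4 and 158.9 CPM in shERG-Dox. It fell with doxycycline, by 1.44 on the log2 scale (limma adjusted p = 3.29e-22). In parental cells ERG was at 289.1 ± 8.85 CPM in DMSO and at 97.25 ± 7.66 CPM after 12 h of PBITE-1. The 10 prostate luminal markers checked (such as KLK2 and KLK3) were all detected, with a summed level of 7573 to 7691 CPM in DMSO, 3203 to 3805 CPM at 12 h, 10600 to 10850 CPM in shERG-DMSO and 6414 to 6639 CPM in shERG-Dox. Of other cell types, the summed level was 1.35 to 9.28 CPM over 4 fibroblast markers, 0.855 to 5.86 CPM over 2 of 3 basal markers, 0.300 to 2.09 CPM over 3 endothelial markers and 0.149 to 2.06 CPM over 3 leukocyte markers. The fibroblast sum, mostly COL1A1, was higher at 12 h (5.31 to 9.28 CPM) than in DMSO (1.89 to 2.96 CPM) and higher in shERG-Dox (7.52 to 8.86 CPM) than in shERG-DMSO (1.35 to 2.32 CPM). The part of the marker sums in the results below was not tested. PTPRC, CDH5 and DCN had at most 4, 1 and 2 counts in a sample, while other markers of these lists moved in both directions with PBITE-1. PECAM1 went from 1 count in each DMSO sample to at most 26 counts at 12 h (log2 4.08, limma adjusted p = 2.73e-06). TP63 had 0 counts in DMSO and at most 14 at 8 h and 13 at 12 h, and LYZ rose by 1.97 at 4 h, to at most 25 counts (limma adjusted p = 0.000585). At 12 h LYZ was at 0.337 CPM, beside 0.383 CPM in DMSO. The endothelial marker VWF fell from 1.094 CPM in DMSO to 0.117 CPM at 12 h, and the basal marker KRT14 from 4.939 to 0.942 CPM. In bulk RNA, fewer cells of a type and less RNA per cell cannot be told apart.

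RefSeq promoter sequences (GRCh38.p14, 250 bases before to 50 after a start in RefSeq) were at hand for 8 of the 10 members, all but MCL1 and BIK, as 10 promoters. That start need not be the edge of the GENCODE gene span given below. The BCL2L11 and BCL2 stretches shown here lie inside those spans. Printed here is the stretch before the start that lies outside annotated exons for the 3 BH3-only genes that rose most in parental cells, with matches to a searched motif in capitals. BCL2L11 is shown from chr2:111120664-111120913 (plus strand), BBC3 from chr19:47232767-47232917 (minus strand) and PMAIP1 from chr18:59899746-59899947 (plus strand). For BCL2, the member that fell in both lines, 30 bases around its match are shown (chr18:63319849-63319878, minus strand), which unlike the other stretches lie inside annotated exons.
BCL2L11: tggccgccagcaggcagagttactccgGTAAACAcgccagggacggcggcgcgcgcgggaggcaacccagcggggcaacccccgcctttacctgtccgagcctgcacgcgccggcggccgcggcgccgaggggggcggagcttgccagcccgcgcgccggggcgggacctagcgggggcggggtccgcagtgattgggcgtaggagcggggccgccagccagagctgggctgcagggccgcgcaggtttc
BBC3: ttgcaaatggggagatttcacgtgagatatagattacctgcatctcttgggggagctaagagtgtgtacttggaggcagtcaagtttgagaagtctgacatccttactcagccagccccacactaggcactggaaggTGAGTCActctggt
PMAIP1: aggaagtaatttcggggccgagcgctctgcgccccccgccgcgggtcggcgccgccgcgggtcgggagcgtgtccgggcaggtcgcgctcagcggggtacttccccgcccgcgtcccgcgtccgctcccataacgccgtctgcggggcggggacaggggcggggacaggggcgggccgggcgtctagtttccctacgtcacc
BCL2: ggtggggtgcagCGGAAGagggggtccagg
The motifs searched, on both strands, were CGGAAG (bound by ETS factors such as ERG), GTAAACA (FOXO factors), TGACTCA (AP-1) and TGATGNAA (CEBP-ATF dimers). They occurred in 19.5%, 3.42%, 4.95% and 3.62% of 35116 RefSeq promoters. In the members, CGGAAG was found in BCL2, beginning 97 bases before the start, and in 1 of the 2 BCL2L1 promoters. GTAAACA was found in BCL2L11, 223 bases before the start, and TGACTCA in BBC3 as its reverse complement, 113 bases before the start. The promoters of PMAIP1, BMF, BAX and BAK1 held none of the 4 letter runs, which says only that these letters are not in those windows.

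The RNA of the BH3-only members rose with PBITE-1, that of BBC3, PMAIP1 and BCL2L11 by more on the log2 scale than any pro-survival member changed in either direction. At 4 h, BBC3, PMAIP1 and BCL2L11 had already risen by 3.94, 3.24 and 2.07 on the log2 scale over DMSO, and by 8 h all 5 BH3-only members were more than 2-fold higher. Of the pro-survival members MCL1 rose less than 2-fold at each time, BCL2L1 fell at each time, and BCL2 fell at 12 h. The effectors BAX and BAK1 passed the test only at 12 h, with rises of 0.24 and 0.54.

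At 4 h, 5 of the 10 members were called higher (limma adjusted p under 0.05 over all genes tested), beside 26.4% of all genes tested, and 1 was called lower, beside 24.7%. With a change of more than 2-fold as well, 3 members were higher, beside 7.28% of all genes, and 0 were lower, beside 2.99%. At 8 h, 6 members were higher (35.9% of all genes) and 1 was lower (37.0%). Past 2-fold at 8 h were 5 higher members (14.9% of all genes) and 1 lower member (8.86%). At 12 h, 8 members were higher (39.4% of all genes) and 2 were lower (39.4%). Past 2-fold at 12 h were 5 higher members (17.1% of all genes) and 1 lower member (15.4%). The counts at adjusted p alone thus stood above the background for higher members at each time, while the single lower member at 4 and 8 h and the pair at 12 h were below it. Because the members were chosen with earlier results of these data known, these shares are a description and not a test of the family. The median log2 change of the 5 BH3-only members was 2.07, 2.36 and 2.17 at 4, 8 and 12 h, that of the 3 pro-survival members was 0.01, -0.33 and -0.65, and that of all genes tested was -0.01, -0.02 and -0.01.

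**Figure D1:**
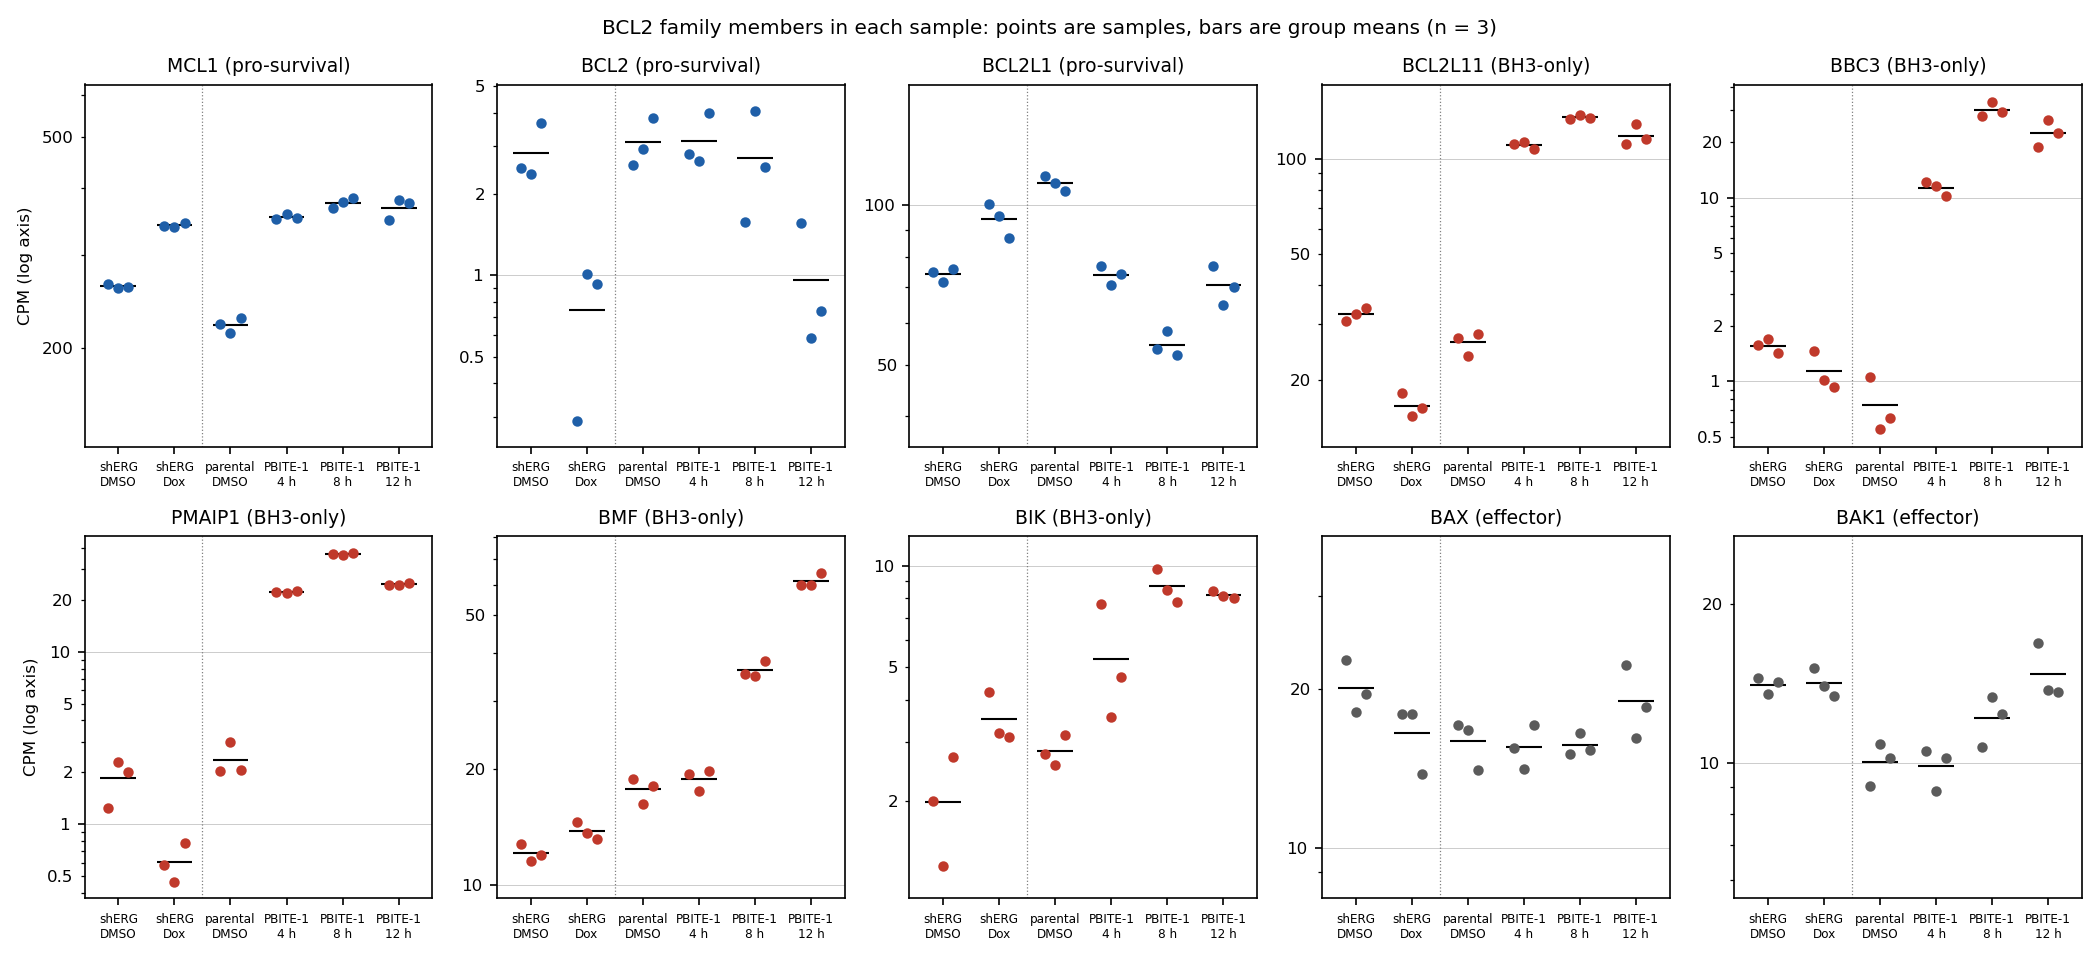
CPM of each of the 10 members on a log axis in each of the 18 samples (points) with the mean of each group of 3 (bars), the shERG line left of the dotted line and parental cells right of it. The BBC3, PMAIP1 and BCL2L11 samples treated with PBITE-1 all lie above the DMSO samples, while BAX samples of the parental groups overlap.

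MCL1 was the most abundant member. Its product is a short-lived pro-survival protein that holds BAK1 and several BH3-only proteins (ENSG00000143384, chromosome 1, 150574551 to 150579738, minus strand, GENCODE 29 on GRCh38, as for all gene positions here). The 3 DMSO samples were at 221.7, 213.3 and 227.1 CPM. After PBITE-1 they were at 349.5, 357.6 and 351.9 CPM at 4 h, at 366.9, 377.7 and 383.0 CPM at 8 h, and at 348.7, 379.6 and 375.2 CPM at 12 h. No treated sample overlapped DMSO, and the 12 h samples overlapped those of 8 h. MCL1 rose by 0.68, 0.77 and 0.74 on the log2 scale (standard errors 0.04 each), with limma adjusted p of 1.39e-17, 4.46e-20 and 8.31e-20. In the shERG line it rose from 263.5, 259.3 and 260.8 CPM to 339.1, 338.9 and 344.5 CPM with doxycycline, a log2 change of 0.38 ± 0.03 (standard error, limma adjusted p = 1.61e-11). MCL1 was thus the 1 pro-survival member that rose in both lines.

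BCL2L1 encodes the long pro-survival form BCL-XL and, by splicing, the short pro-death form BCL-XS, which gene-level counts do not separate (ENSG00000171552, chromosome 20, 31664452 to 31723989, minus strand). DMSO samples held 113.6, 110.0 and 106.4 CPM. PBITE-1 samples held 76.85, 70.80 and 74.14 CPM at 4 h, 53.62, 57.96 and 52.09 CPM at 8 h, and 76.76, 64.79 and 70.18 CPM at 12 h. All treated samples lay below DMSO and the 8 h samples lay lowest. BCL2L1 fell by 0.57, 1.01 and 0.65 on the log2 scale (limma adjusted p = 2.73e-11, 2.52e-18 and 1.63e-13). With doxycycline it moved the other way, from 74.75, 71.68 and 75.94 CPM to 100.7, 95.38 and 86.68 CPM, a rise of 0.35 ± 0.05 (standard error, limma adjusted p = 3.28e-06). An annotated antisense RNA, ABALON, shares 1424 exonic bases with BCL2L1, and since the use of strand in the counting is not stated, reads of the antisense RNA cannot be told apart from those of BCL2L1.

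BCL2, the founding pro-survival gene of the family, was among the 2 least abundant members (ENSG00000171791, chromosome 18, 63123346 to 63320128, minus strand). It had 39, 48 and 67 counts in DMSO, 34, 36 and 54 at 4 h, 27, 59 and 28 at 8 h, and 21, 9 and 11 at 12 h. In CPM the 12 h samples (1.564, 0.588 and 0.740) lay below the 3 DMSO samples (2.562, 2.929 and 3.825), while the earlier times overlapped DMSO. BCL2 fell at 12 h by 1.80 ± 0.38 on the log2 scale (standard error, limma adjusted p = 5.52e-05), 3.47-fold. At 4 and 8 h the log2 differences of 0.01 and -0.33 did not pass (limma adjusted p = 0.977 and 0.286), with 95% intervals of -0.53 to 0.55 and -0.89 to 0.23. The 8 h value rested on single libraries: it was -0.69 (limma adjusted p = 0.0494) without PBITE-1 8 h replicate 2 and 0.10 without replicate 1. In the shERG line BCL2 went from 30, 35 and 49 counts to 4, 13 and 12 with doxycycline. It fell by 2.04 ± 0.41 (standard error, limma adjusted p = 7.79e-05), 4.12-fold, the largest change of any member there. At these counts a few reads move the fold, and its 95% interval ran from -2.88 to -1.21.

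BCL2L11 encodes BIM, a BH3-only protein that binds all the pro-survival proteins and can activate BAX directly (ENSG00000153094, chromosome 2, 111119378 to 111168447, plus strand). Its samples were at 27.27, 23.80 and 27.91 CPM in DMSO. With PBITE-1 they were at 111.3, 112.9 and 107.3 CPM at 4 h, 134.0, 137.6 and 134.9 CPM at 8 h, and 111.5, 128.6 and 115.6 CPM at 12 h. Treated and DMSO samples were far apart, and most of the rise was present at 4 h. The fold over DMSO was 4.2, 5.15 and 4.51 (log2 2.07, 2.36 and 2.17, standard errors 0.07 each, limma adjusted p = 2.43e-25, 4.64e-28 and 4.64e-27). With doxycycline BCL2L11 moved the opposite way, from 30.85, 32.26 and 33.70 CPM to 18.17, 15.39 and 16.28 CPM. It fell by 0.96 ± 0.09 on the log2 scale (standard error, limma adjusted p = 2.9e-10). The gene shares 727 exonic bases with MIR4435-2HG on the opposite strand, whose reads cannot be told apart from its own without strand. BIM isoforms of different length and potency are not separated by gene-level counts.

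BBC3 encodes PUMA, a BH3-only protein known as a target of FOXO3 and stress-induced factors (ENSG00000105327, chromosome 19, 47220822 to 47232766, minus strand). It was barely expressed in DMSO, with 16, 9 and 11 counts. PBITE-1 gave 148, 156 and 139 counts at 4 h, 476, 481 and 328 at 8 h, and 255, 403 and 333 at 12 h. All treated samples stood above DMSO, and the 8 h samples stood above those of 4 h and of 12 h in CPM. The fold over DMSO was 15.3, 40.7 and 30.6 (log2 3.94, 5.35 and 4.93, standard errors 0.35, 0.34 and 0.35, limma adjusted p = 3.55e-12, 6.5e-17 and 5.19e-16). These are the largest changes among the 10 members, measured against few counts. With doxycycline the counts were 19, 25 and 19 without it and 20, 13 and 12 with it, the groups overlapped, and the log2 difference of -0.47 did not pass (limma adjusted p = 0.216).

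PMAIP1 encodes NOXA, a BH3-only protein that binds MCL1 preferentially and promotes its breakdown (ENSG00000141682, chromosome 18, 59899948 to 59904306, plus strand). DMSO samples had 31, 49 and 36 counts. PBITE-1 samples had 270, 295 and 303 counts at 4 h, 633, 527 and 418 at 8 h, and 327, 374 and 373 at 12 h. In CPM the replicates of each PBITE-1 group lay close together, at 21.78 to 22.40, 36.27 to 37.48 and 24.35 to 25.07, against 2.037 to 2.990 in DMSO. The fold was 9.42, 15.7 and 10.5 (log2 3.24, 3.97 and 3.39, standard errors 0.18 each, limma adjusted p = 2.66e-18, 4.4e-22 and 5.79e-20). In the shERG line PMAIP1 fell, from 15, 34 and 27 counts to 8, 6 and 10 with doxycycline. The log2 change was -1.56 ± 0.40 (standard error, limma adjusted p = 0.0013), and the groups did not overlap in CPM.

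BMF and BIK are BH3-only genes with slower or smaller responses. BMF encodes a sensor that is held on dynein light chain until released (ENSG00000104081, chromosome 15, 40087890 to 40108892, minus strand). It was at 18.86, 16.23 and 18.04 CPM in DMSO, 19.38, 17.50 and 19.74 CPM at 4 h, 35.18, 34.76 and 38.02 CPM at 8 h, and 60.09, 59.76 and 64.20 CPM at 12 h. The 4 h samples overlapped DMSO and each later group lay above the one before it. BMF rose by 1.02 at 8 h and by 1.79 at 12 h on the log2 scale (limma adjusted p = 5.78e-14 and 9.11e-23), while the 4 h difference of 0.09 did not pass (limma adjusted p = 0.44). With doxycycline BMF was at 13.18 to 14.61 CPM against 11.56 to 12.80 CPM, a log2 difference of 0.20 that did not pass (limma adjusted p = 0.112). That difference passed with upper-quartile scaling (0.36), with library size alone (0.46) and with a filter of 10 counts in every sample (0.24). BMF shares 461 exonic bases with the antisense gene BMF-AS1, so that its reads are uncertain in the same way.

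BIK, an endoplasmic reticulum-associated BH3-only gene, held 42, 42 and 55 counts in DMSO (ENSG00000100290, chromosome 22, 43110748 to 43129712, plus strand). It held 93, 48 and 63 counts at 4 h, 168, 123 and 87 at 8 h, and 113, 124 and 119 at 12 h. In CPM no treated sample overlapped DMSO, and at 4 h replicate 1 (7.669) stood above the other two (3.543 and 4.657). BIK rose by 0.81, 1.63 and 1.52 on the log2 scale (limma adjusted p = 0.00345, 6.02e-09 and 2.28e-08), and the 4 h call was lost without that replicate (0.52, limma adjusted p = 0.0691). With doxycycline it rose from 24, 19 and 36 counts to 58, 41 and 40, by 0.88 ± 0.28 (standard error, limma adjusted p = 0.00672). That call was lost without shERG-DMSO replicate 2 (0.57, limma adjusted p = 0.0825).

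The effectors changed little. BAX is the cytosolic pore former (ENSG00000087088, chromosome 19, 48954815 to 48961798, plus strand), and BAK1 its mitochondria-resident counterpart (ENSG00000030110, chromosome 6, 33572547 to 33580293, minus strand). BAX spanned 14.04 to 17.08 CPM in DMSO. The spans were 14.10 to 17.08 CPM (4 h), 15.05 to 16.52 CPM (8 h) and 16.15 to 22.19 CPM (12 h), each overlapping DMSO. The 12 h difference of 0.24 passed (limma adjusted p = 0.0392), but it did not in 7 of 22 alternatives, among them those without DMSO replicate 3 (0.14), without PBITE-1 12 h replicate 1 (0.13) or without PBITE-1 12 h replicate 3 (limma adjusted p = 0.0653). BAK1 spanned 9.067 to 10.86 CPM in DMSO, and 8.859 to 10.55 CPM (4 h), 10.73 to 13.35 CPM (8 h) and 13.65 to 16.83 CPM (12 h) after PBITE-1. Only its 12 h samples all lay above DMSO, and it rose there by 0.54 ± 0.12 (standard error, limma adjusted p = 9.61e-05). At 8 h the BAK1 difference of 0.26 just missed the threshold (limma adjusted p = 0.0618), and in 4 of 22 alternatives it passed, among them without DMSO replicate 2 (0.31) and without PBITE-1 8 h replicate 1 (0.36). At 4 h the 95% intervals were -0.26 to 0.20 for BAX and -0.30 to 0.24 for BAK1.

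With doxycycline in the shERG line, the pro-survival and BH3-only members split within their classes. MCL1 and BCL2L1 rose and BCL2 fell, while BCL2L11 and PMAIP1 fell, BIK rose, and BBC3 and BMF did not pass. Of the 10 members 3 were called higher, beside 35.1% of all genes tested, and 4 were called lower, beside 35.3%, so neither share stands far from the background. Past 2-fold were 0 higher members, beside 12.0% of all genes, and 2 lower members (BCL2 and PMAIP1), beside 7.19%. Of the effectors, BAX was at 18.06 to 22.62 CPM in shERG-DMSO and at 13.80 to 17.88 CPM in shERG-Dox, a log2 change of -0.27 (limma adjusted p = 0.0295). The BAX call was lost in 7 of 15 alternatives, among them without shERG-DMSO replicate 1 (-0.19) or without shERG-Dox replicate 3 (-0.15). BAK1 was at 13.52 to 14.47 CPM and 13.41 to 15.11 CPM, and its log2 difference of 0.01 had a 95% interval of -0.20 to 0.23. Scaling mattered here: with library size alone the median of all genes tested rose from 0.02 to 0.28, BAX was at -0.01, BMF and BAK1 passed as higher (0.46 and 0.28), and 5 members in place of 3 were called higher.

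**Figure D2:**
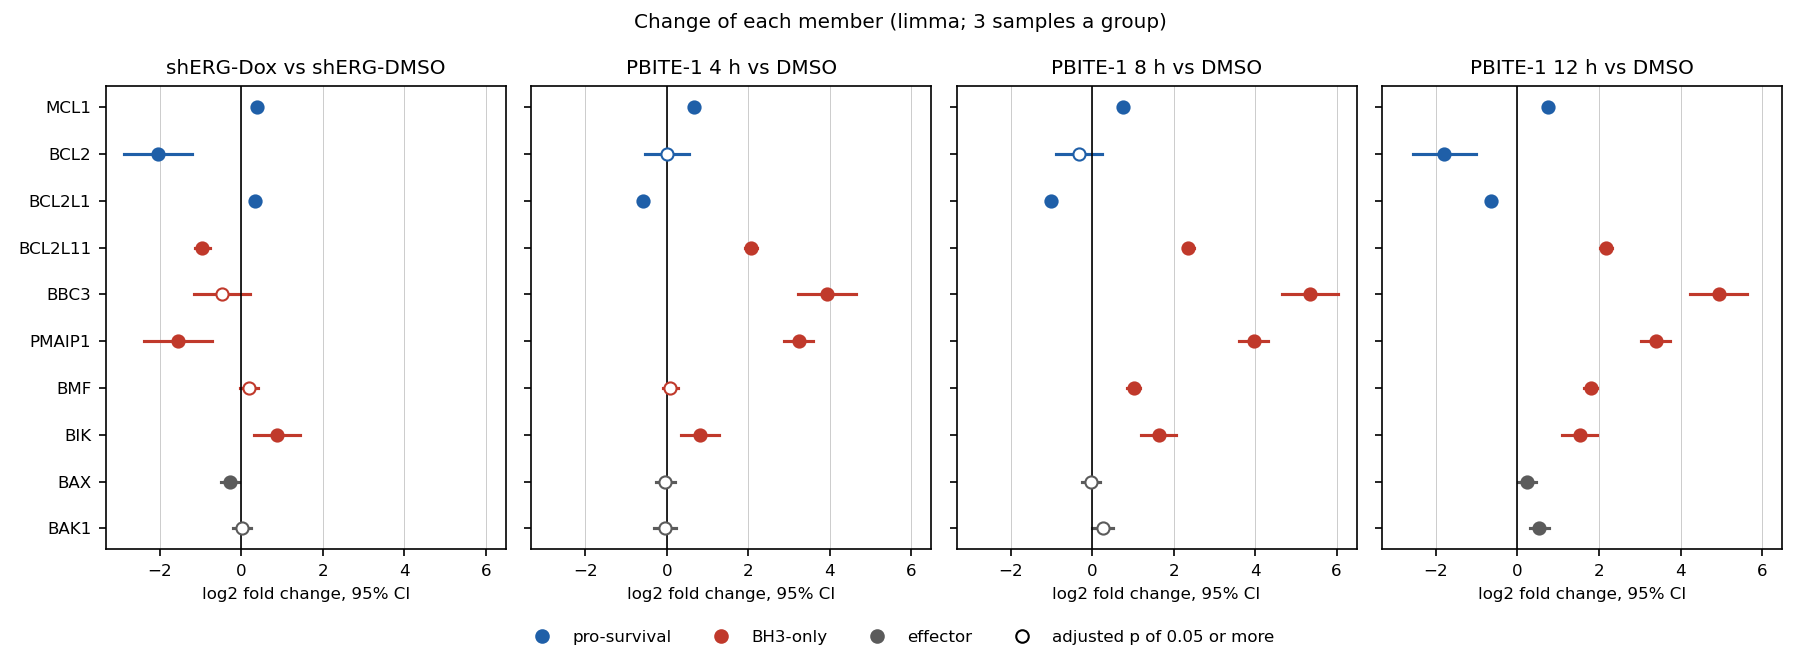
Log2 fold change (limma) with 95% interval of each member for doxycycline against shERG-DMSO and for PBITE-1 at 4, 8 and 12 h against DMSO, filled where the adjusted p was under 0.05. The BH3-only members (red) reach 5.35 at 8 h, whereas the pro-survival members (blue) lie between -2.04 and 0.77 in the 4 comparisons.

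Between times of PBITE-1, the BH3-only members rose from 4 to 8 h and then parted. From 4 to 8 h, 6 members were higher (26.7% of all genes tested) and 1 was lower (26.3%). All 5 BH3-only members were among the higher, with BBC3 rising by 1.41, BMF by 0.93, BIK by 0.82, PMAIP1 by 0.73 and BCL2L11 by 0.29 on the log2 scale. BCL2L1 fell by 0.43. MCL1 was the sixth, at 0.09 (limma adjusted p = 0.0486), a call that was lost in 12 of 22 alternatives (limma adjusted p up to 0.149), including those without any 1 of the 3 PBITE-1 4 h samples, without 8 h replicate 2 or 3, or without 12 h replicate 3. From 8 to 12 h, 4 members were higher (27.8% of all genes) and 4 were lower (32.5%). BCL2L11, BBC3 and PMAIP1 fell by 0.19, 0.41 and 0.58, and BCL2 by 1.47. BMF rose further, by 0.78 (limma adjusted p = 4.08e-13), and BCL2L1 rose by 0.36. BIK was at -0.11 (limma adjusted p = 0.572). BAX and BAK1 passed at 0.26 and 0.28 (limma adjusted p = 0.0424 and 0.0362), but both calls were lost without 8 h replicate 1 or 3 or without 12 h replicate 1, which left 2 members higher. The BAX call was also lost without 12 h replicate 3. BMF was thus the 1 BH3-only member still rising at 12 h, while BBC3, PMAIP1 and BCL2L11 were highest at 8 h.

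The difference between the 12 h response to PBITE-1 and the response to doxycycline was tested in a fit of all 18 samples. Line, agent and time all differ between the 2 responses and cannot be told apart. Of the members 7 had a higher response to PBITE-1 (33.3% of all genes tested) and 1 a lower response (35.1%). The differences were largest for BBC3, PMAIP1 and BCL2L11, at 5.37 ± 0.52, 4.91 ± 0.44 and 3.09 ± 0.12 on the log2 scale (standard errors). BMF followed at 1.56 ± 0.14, and BCL2L1 stood at -1.03 ± 0.08 (limma adjusted p = 1.3e-15), falling in one line and rising in the other. For BCL2 the difference of 0.21 did not pass (limma adjusted p = 0.77), and its 95% interval of -0.99 to 1.41 leaves room for unequal falls. BIK also did not pass, at 0.60 (limma adjusted p = 0.14).

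Levels were compared between genes only per kilobase of merged exons. In DMSO the order was MCL1 (50.5 ± 1.597 CPM per kb), BCL2L1 (33.2 ± 1.09), BAX (6.17 ± 0.64), BAK1 (4.54 ± 0.41), BCL2L11 (3.95 ± 0.33), BMF (3.25 ± 0.25), BIK (2.96 ± 0.31), PMAIP1 (1.06 ± 0.24), BCL2 (0.264 ± 0.055) and BBC3 (0.234 ± 0.085). BAK1 and BCL2L11, BMF and BIK, and BCL2 and BBC3 were each closer together than the sum of their SDs. At 8 h the order was MCL1 (86.0 ± 1.89 CPM per kb), BCL2L11 (20.4 ± 0.28), PMAIP1 (16.5 ± 0.27), BCL2L1 (16.5 ± 0.92), BBC3 (9.46 ± 0.86), BIK (9.12 ± 1.07), BMF (6.61 ± 0.33), BAX (6.04 ± 0.30), BAK1 (5.50 ± 0.60) and BCL2 (0.231 ± 0.107). BCL2L11 had passed BCL2L1, and PMAIP1 and BCL2L1, BBC3 and BIK, BMF and BAX, and BAX and BAK1 were closer than the sum of their SDs. With the longest coding transcript as the length, BCL2L1 (20.9) stood above PMAIP1 (18.9) at 8 h and BAX (11.5) above BIK (9.12) and BMF (7.68). These are RNA levels, and protein levels were not measured here.

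Summed over each class per kb, the BH3-only RNA drew nearer to the pro-survival RNA with PBITE-1. The pro-survival sum went from 84.0 ± 1.54 CPM per kb in DMSO to 103.3 ± 0.116, 102.7 ± 2.16 and 105.6 ± 2.16 at 4, 8 and 12 h, in which MCL1 was the 1 member that rose. The BH3-only sum was 11.5 ± 0.614 in DMSO and 39.1 ± 2.65, 62.1 ± 0.564 and 55.8 ± 2.27 after PBITE-1, with no overlap between treated and DMSO samples. The BH3-only share of the RNA of the 10 members was thereby 10.8% ± 0.455 in DMSO and 25.6% ± 1.22, 35.2% ± 0.603 and 31.8% ± 0.923 at 4, 8 and 12 h. In the shERG line the share was 9.80% ± 0.666 in shERG-DMSO and 7.25% ± 0.638 in shERG-Dox, and the pro-survival sum was 82.4 ± 1.05 and 106.5 ± 1.501 CPM per kb. MCL1 alone made up 47.6% ± 1.12 of the 10 members in DMSO and 48.8% ± 0.756 at 8 h. Other BCL2 family genes did not enter these sums and shares, which therefore do not describe the whole BH3-only or pro-survival class. Their exon lengths were not taken, so how far they would move the sums and shares was not computed. Among them, the BH3-only genes BAD and BID went from 52.45 and 14.69 CPM in DMSO to 38.82 and 1.526 CPM at 12 h. HRK, also BH3-only, went from 0.594 to 6.54 CPM, and BCL2L2 was at 49.66 and 51.15 CPM.

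A second measure gave each gene the same weight: the mean log2 CPM of the 5 BH3-only members less that of the 3 pro-survival members, without length. It was -2.97, -3.15 and -3.23 in the DMSO samples, -0.99, -1.20 and -1.33 at 4 h, 0.09, -0.38 and -0.14 at 8 h, and -0.22, 0.35 and 0.17 at 12 h. Treated samples all lay above DMSO, and the 8 and 12 h samples overlapped. The mean moved by 1.94, 2.97 and 3.21 over DMSO, against a largest SD within a group of 0.38. In the shERG line the measure was -3.02, -2.92 and -3.01 in shERG-DMSO and -2.54, -3.27 and -3.10 in shERG-Dox, a mean difference of 0.02 that is within the spread of the samples. That value depended on which members entered it: it was -0.72 without BCL2, -0.28 without BIK, 0.39 without MCL1, 0.37 without BCL2L1 and 0.27 without PMAIP1. No test was made of these scores, since the members were chosen with earlier results of these data known.

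**Figure D3:**
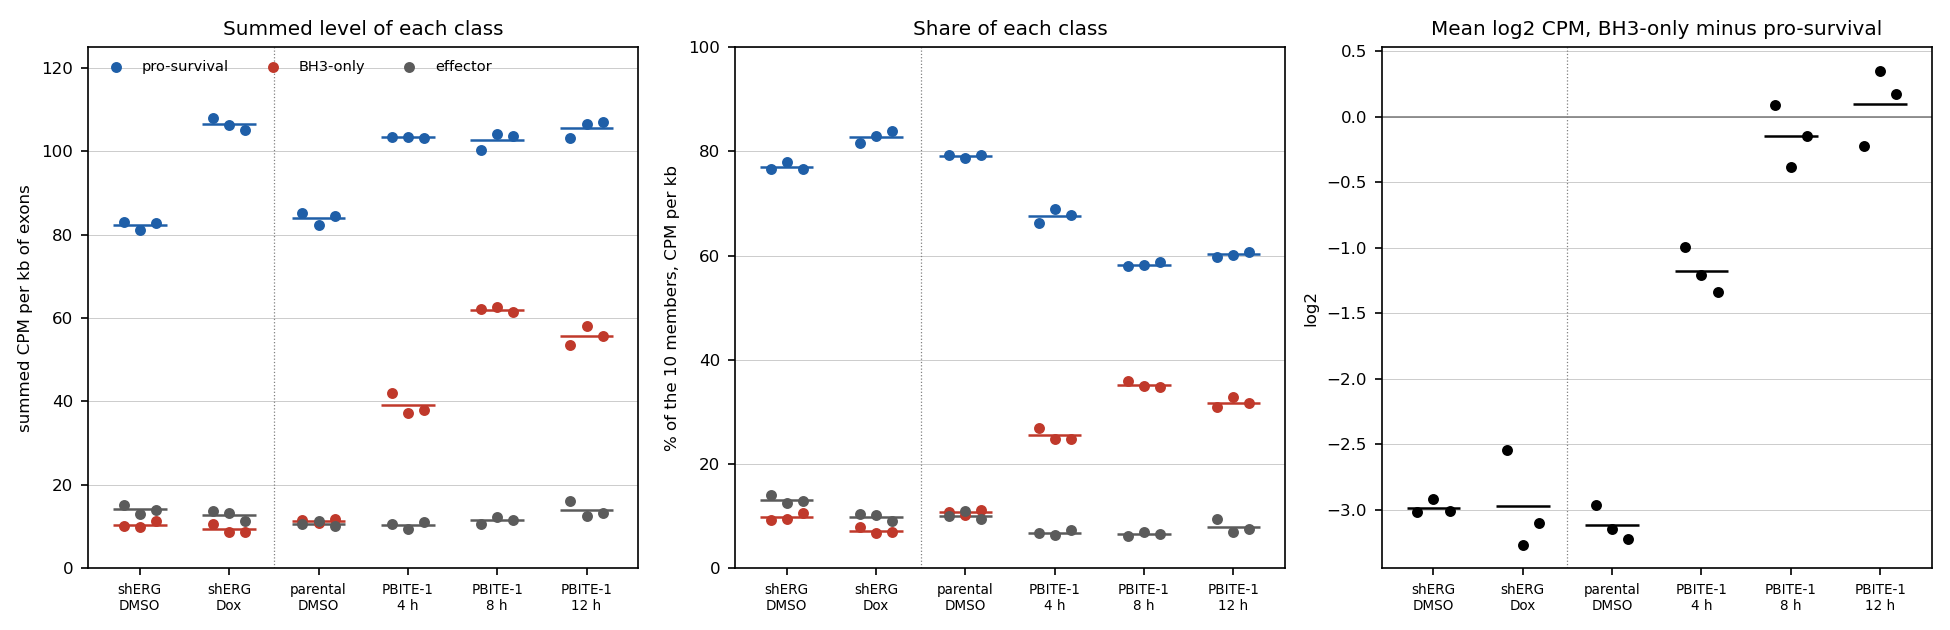
Summed CPM per kb of the pro-survival, BH3-only and effector members, their share of the 10 members in percent, and the mean log2 CPM of BH3-only less pro-survival members, for each sample (points) and group mean (lines). The BH3-only sum rises from 11.5 in DMSO to 62.1 at 8 h, and the log2 measure from about -3.11 to -0.14, while the 2 shERG groups lie together near -3.

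Ratios of known binding pairs were taken on CPM without length, so that only their changes between groups carry information. PMAIP1 to its main partner MCL1 stood at log2 -6.49 ± 0.34 in DMSO and -3.34 ± 0.03 at 8 h, and at -7.07 ± 0.44 and -8.83 ± 0.28 in shERG-DMSO and shERG-Dox. BCL2L11 to BCL2L1 stood at -2.06 ± 0.14 in DMSO, 0.58 ± 0.08 at 4 h, 1.31 ± 0.06 at 8 h and 0.75 ± 0.23 at 12 h. Both ratios were higher with PBITE-1 than in DMSO at these times by more than the sum of the SDs. With doxycycline the BCL2L11 to BCL2L1 ratio went from -1.20 ± 0.07 to -2.49 ± 0.11.

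The genes whose level followed each member most closely over the 12 parental samples were found by Pearson's r of log2 CPM among 10622 genes with a mean of at least 5 CPM, for the 7 members whose parental group means ranged over more than 1 on the log2 scale. These samples share 4 groups, so r mostly reflects the group means and is given as a description. Closest to BCL2L11 were MKNK2, DIPK2A and TENT5C (r = 0.997 each), to BBC3 AHR (0.997), PNP (0.997) and IRF7 (0.996), and to PMAIP1 RBM14 (0.997), ZCCHC24 (0.996) and STK17A (0.996). BMF was followed most closely by PBXIP1 (0.994), SH3KBP1 and STC1 (0.992 each), and BCL2L1 by FAM174B (0.992), ASXL1 (0.988) and PABPN1 (0.986). For the low-count members the r was lower: DBR1 (0.945), ASPHD1 (0.943) and LGI2 (0.931) for BCL2, and GOLGA6L10 (0.972, a multigene family whose reads are uncertain), CCDC77 (0.962) and GPC4 (0.960) for BIK.

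Among the other BCL2 family genes, 8 of 12 passed the filter. At 12 h of PBITE-1, 4 were higher, 3 were lower and 1 did not pass, beside 39.4% of all genes in each direction. With doxycycline 2 were higher, 3 were lower and 3 did not pass, beside 35.1% and 35.3% of all genes. HRK, another BH3-only gene, rose from 0.594 CPM in DMSO to 1.968 at 4 h, 5.59 at 8 h and 6.54 CPM at 12 h (log2 1.75, 3.30 and 3.54, limma adjusted p = 0.0029, 1.58e-08 and 2.15e-09). BID, the BH3-only protein that links death receptors to mitochondria, had a lower level with PBITE-1, as did BAD, another BH3-only gene, with log2 changes of -0.15, -0.21 and -0.43 at 4, 8 and 12 h (limma adjusted p = 0.0427, 0.00311 and 2.44e-07). For BID the log2 change was -1.43 at 8 h and -3.26 at 12 h, where it fell from 14.69 CPM in DMSO to 1.526 CPM (limma adjusted p = 2.88e-11 and 3.26e-15).

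Downstream of mitochondria, 11 of 11 apoptosome and caspase genes were tested, of which 6 were higher and 4 lower at 12 h of PBITE-1, beside 39.4% of all genes each way. APAF1, the apoptosome scaffold, rose from 13.85 to 36.04 CPM at 8 h and 55.31 CPM at 12 h (log2 1.39 and 2.00). CASP9, its initiator caspase, rose by 1.34 and 2.01 at the same times. The 4 lower genes at 12 h were CASP2 (-0.63), CASP10 (-0.63), CASP8 (-0.43) and CYCS (-0.32). CASP2 was also lower at 4 and 8 h (-0.56 and -0.57). Past 2-fold at 8 h were 4 higher genes (14.9% of all genes) and 1 lower gene (8.86%). The lower gene was DIABLO, at -1.47, with 1.319 CPM in DMSO and 0.457 CPM at 8 h. With doxycycline 4 genes of the list were higher and 4 lower (35.1% and 35.3% of all genes). CASP9 rose by 1.07, CASP2 fell by 1.27 and CYCS, which encodes cytochrome c, fell by 1.04.

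Genes that restrain or feed the pathway also moved in both directions. Of 5 inhibitor of apoptosis genes tested of 6, 2 were higher and 3 lower at 8 h (35.9% and 37.0% of all genes). BIRC3, which encodes cIAP2, rose from 11.81 CPM in DMSO to 46.26, 122.0 and 76.84 CPM at 4, 8 and 12 h (log2 1.95, 3.36 and 2.69, limma adjusted p = 1.12e-14, 1.17e-23 and 1.61e-20). Of 7 death receptor pathway genes tested of 8, 3 were higher and 3 lower at 12 h (39.4% of all genes each way). The TRAIL receptors parted: TNFRSF10B rose by 1.08 and 1.13 at 8 and 12 h, while TNFRSF10A fell by 1.47 at 12 h and by 1.53 with doxycycline. FAS fell by 1.48 with doxycycline. Of 5 genes that control MCL1 protein turnover (HUWE1, USP9X, FBXW7, MARCHF5 and BTRC), 5 were higher at 8 h (35.9% of all genes). The list is not sorted by whether a gene lowers or raises MCL1 protein, so this count gives no direction for the protein. At 8 h 1 of them was past 2-fold, FBXW7, which marks MCL1 for breakdown and rose by 1.18. At 12 h 4 were higher (39.4%), 1 did not pass and 0 were past 2-fold. With doxycycline 2 were higher and 2 lower (35.1% and 35.3%). Of 4 genes for binding partners in the cytoskeleton and mitochondria (DYNLL1, DYNLL2, VDAC1 and VDAC2), 0 were higher and 4 lower with doxycycline (35.1% and 35.3% of all genes). At 8 h 2 were higher and 1 lower (35.9% and 37.0%), and at 12 h 1 was higher and 2 were lower (39.4% each way).

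**Figure D4:**
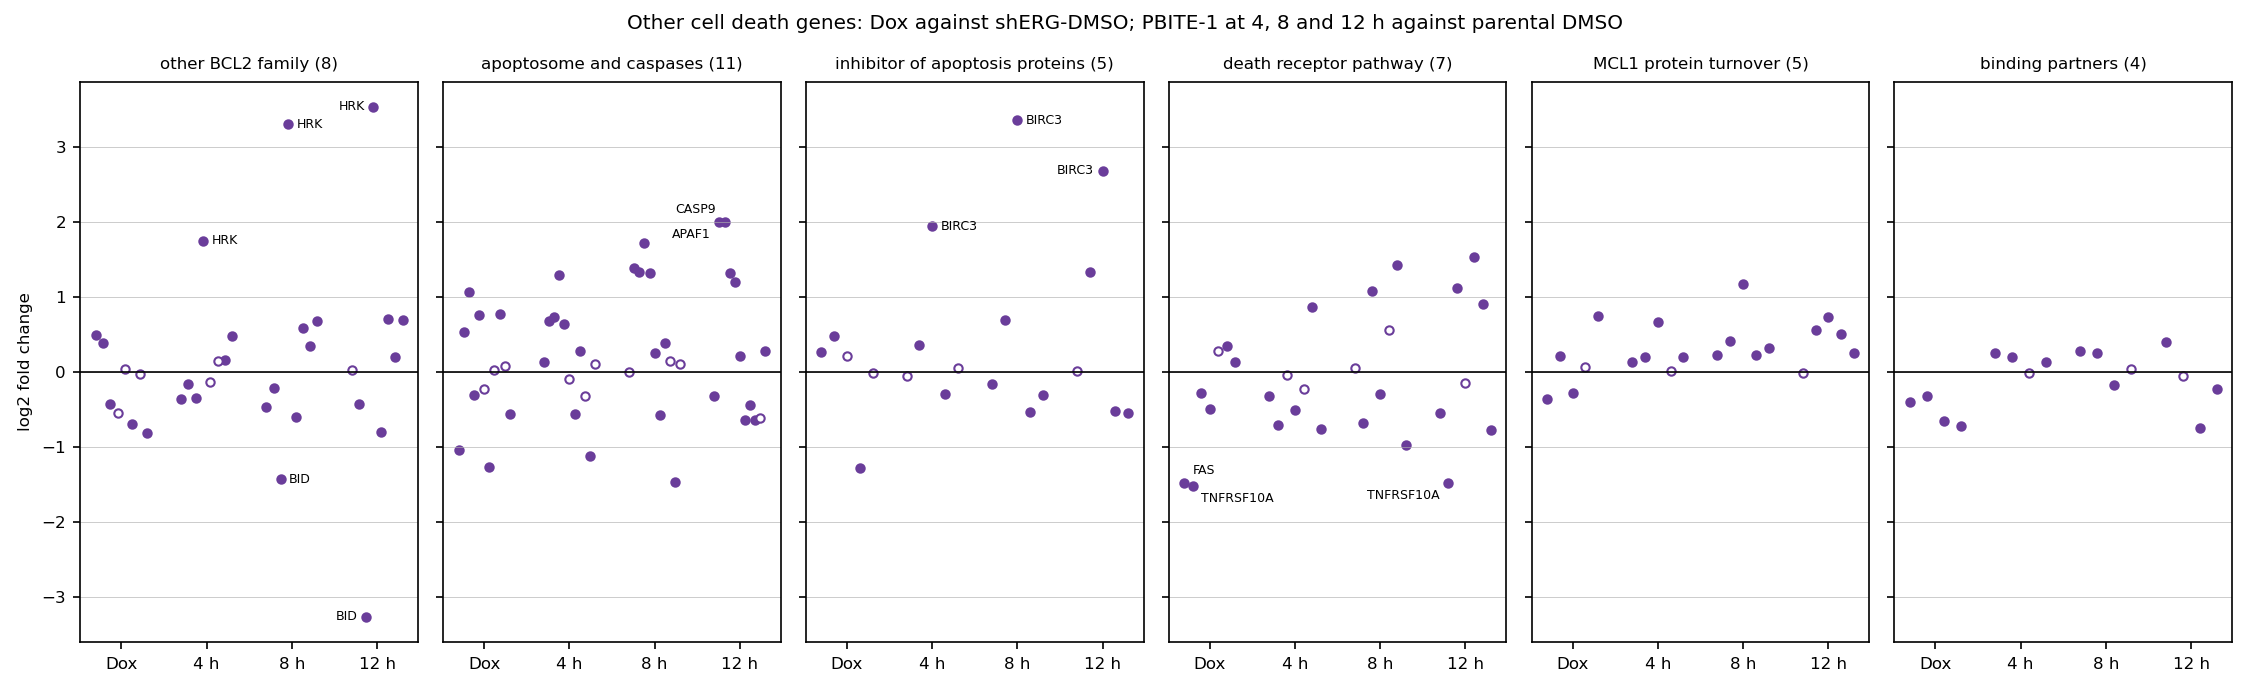
Log2 fold change of the tested genes of 6 other cell death lists (number tested in brackets) for doxycycline against shERG-DMSO and PBITE-1 at 4, 8 and 12 h against DMSO, filled where the limma adjusted p was under 0.05. Labels mark genes named in the text beyond 1.4 in either direction. HRK and BIRC3 stand at 3.30 and 3.36 at 8 h, and BID stands at -3.26 at 12 h.

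Of 14 regulators known to act on BCL2 family genes, all tested, 7 were higher and 2 lower at 4 h (26.4% and 24.7% of all genes). At 12 h 8 were higher and 6 lower (39.4% each way), and with doxycycline 4 were higher and 7 lower (35.1% and 35.3%). FOXO3, a forkhead factor known to act on BCL2L11 and BBC3, rose from 104.2 to 493.9 CPM at 4 h (log2 2.24), and FOXO1 rose by 2.64. The stress-response factors DDIT3, ATF4 and ATF3 rose by 3.76, 1.10 and 8.82 at 4 h, ATF3 from 0.632 CPM in DMSO, and JUN by 5.20. MYC fell by 3.14, 3.63 and 2.97 at 4, 8 and 12 h and by 1.94 with doxycycline. With doxycycline FOXO3 rose by 0.24, ATF4 fell by 0.50, JUN rose by 0.70, and FOXO1, DDIT3 and ATF3 did not pass (log2 -0.11, -0.17 and -0.35). The binding of these factors to the members' promoters was not measured here.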

How the data were processed

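RNA was measured in 18 samples, 3 in each of 6 groups, named by the sample labels. The authors deposited whole-number counts per Ensembl gene. The submitters' notes name STAR, featureCounts and hg38, whereas the study's methods name Kallisto. Which of these made the deposited count table, its annotation and its use of strand are not stated.

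Genes were filtered with edgeR (version 4.0.16, filterByExpr), scaled by TMM and tested with limma (version 3.58.1, voom, lmFit, eBayes) in R 4.3.3. The study used limma-voom after edgeR normalization, in other versions, and the filter and TMM are choices made here. The 6 shERG and 12 parental samples were fitted separately and all 18 together for the difference of responses. P-values were adjusted by Benjamini-Hochberg over 14164 genes, with a threshold of 0.05. Log2 CPM used a prior count of 2. The steps were tested on simulated data in which few genes changed, as many up as down. Far more genes were called in the real data, so the simulation does not test the scaling there. The study calls the replicates biological without saying whether they are separate cultures, so p-values measure only the spread between these samples. Replicates differed by more than counting noise (chi-square per degree of freedom 1.71 to 5.17), so none was counted as a duplicate. Positions are from GENCODE 29 (GRCh38), matched by Ensembl ID. Symbols matched 22011 of 22034 genes.

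Members and lists were chosen with earlier results of these data known. Named are all 10 members, listed genes past 2-fold in any treatment comparison, and the 3 genes most like a member. BAD and BCL2L2 were named after their values were seen. Alternatives tried were DESeq2 (version 1.42.0), edgeR's quasi-likelihood test, other scalings and filters, other sample sets, a replicate block and leaving out each sample or member. Leaving out samples from the class measure was added after seeing the data. Values of some listed genes are not reported here.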

Additional observations from a re-analysis of the deposited data

Results flagged for a closer look

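For 8 of the 10 members the 12 h response to PBITE-1 differed from the response to doxycycline by a test of the difference itself (limma, all 18 samples, adjusted p under 0.05). On the log2 scale the differences were 5.37 for BBC3, 4.91 for PMAIP1, 3.09 for BCL2L11, 1.56 for BMF, 0.48 for BAK1, 0.47 for BAX, 0.31 for MCL1 and -1.03 for BCL2L1. Beside them, 33.3% of all genes tested had a higher and 35.1% a lower response to PBITE-1. With library size alone as the scaling, the differences of MCL1 (0.05), BAX (0.21) and BAK1 (0.22) no longer passed, and with upper-quartile scaling that of BAX (0.34) did not. The parental and shERG lines, the agents and the times cannot be told apart in these differences.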

How the results depend on the processing

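Of 1499 recomputed log2 fold changes of members, 1416 kept direction and side of the threshold, 43 lost the call, 12 gained it and 28 turned direction, none of them called. Those were BCL2 at 4 h (-0.0117 with upper-quartile scaling, -0.0364 with library size, -0.0096 in a single fit of all 18), BAX at 8 h (0.0028 with at least 10 counts in every sample) and from 4 to 8 h (-0.0068 with library size, -0.0011 with the replicate block), MCL1 from 8 to 12 h (0.0039 with only the groups compared) and the BCL2 difference of responses (-0.0557 with library size). Leaving out 1 sample gave -0.0294 to 0.0564 for BAK1 with doxycycline, -0.18 to 0.18 for BCL2, -0.12 to 0.0408 for BAX and -0.0987 to 0.0459 for BAK1 at 4 h, -0.11 to 0.0311 for BAX and -0.69 to 0.096 for BCL2 at 8 h, -0.0598 to 0.0852 for BAX and -0.71 to 0.0841 for BCL2 from 4 to 8 h, -0.0523 to 0.0081 for MCL1 from 8 to 12 h, and -0.34 to 0.52 for the BCL2 difference of responses. It also gave 1 to 2 lower members at 8 h and 2 to 4 higher members from 8 to 12 h, where no filter gave 2. With library size alone doxycycline gave 3184 lower genes in place of 5005 (506 past 2-fold) and 5 higher members, and the difference of responses gave 4 higher members. Requiring 10 counts in every sample removes BCL2, BBC3 and PMAIP1 by construction. It gave 1 lower member with doxycycline, at 12 h and from 8 to 12 h, and 3 higher members at 4 h. The genes past 2-fold then numbered 915 higher with doxycycline, 213 lower and 554 higher at 4 h, and 788 lower and 1354 higher at 8 h. The cause of the other shifts was not tested.

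The class measure moved most when a member was left out. With doxycycline it was -0.72 without BCL2, 0.39 without MCL1, 0.37 without BCL2L1, 0.27 without PMAIP1 and -0.28 without BIK, beside a largest SD of 0.38. At 4 h it was 2.26 without MCL1, 1.63 without BCL2L1, 1.496 without BBC3, 1.64 without PMAIP1, 2.41 without BMF and 2.23 without BIK. At 8 h it was 3.44, 2.55, 2.38, 2.69, 3.42 and 3.28 without the same members in turn. At 12 h it was 3.84 without MCL1, 2.65 without BCL2, 2.71 without BBC3 and 3.52 without BIK. Leaving out each sample, chosen after seeing the data, gave -0.20 to 0.16 with doxycycline and 1.84 to 2.02, 2.85 to 3.09 and 3.09 to 3.38 at 4, 8 and 12 h.

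Replicate numbers were not used to pair the samples, since no same-numbered pair correlated above 0.1 (r -0.0232 to 0.0413). With 3 samples a group, this does not exclude that same-numbered samples were handled together. With a replicate block doxycycline gave 4 lower and 3 higher members, as without it, and 5017 lower and 4948 higher genes, and no count of members changed. Members with few counts (BCL2, BBC3, PMAIP1 and BIK) are limited by depth.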
